A study of Mus musculus with 12 samples.

Results

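The endothelial genes Vwf, Ly6c1, Pecam1, Cdh5, Kdr, Tek, Tie1, Emcn, Plvap and Esam were read from a table of raw RNA-seq counts of colon tumours. They were chosen by name as genes of the vessel wall, and they are 10 of the 24062 genes in the table. Vwf and Ly6c1 head the set because of their values in these libraries: Vwf was low in WT hosts with St2-/- marrow, and Ly6c1 was low in St2-/- hosts. Those values, and for Vwf those of every comparison that contains St2-/- => WT or WT => WT libraries, are therefore given as descriptions, without a test. All 10 genes passed the filter on low counts that left 15060 genes for testing.

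The tumours came from bone marrow chimeras of the Balb/c background, written as marrow => host. St2, encoded by Il1rl1, is the receptor for the cytokine interleukin-33. The 4 groups, of 3 libraries each, crossed the genotype of the marrow with that of the host: St2-/- => St2-/-, WT => St2-/-, St2-/- => WT and WT => WT. All hosts, WT hosts included, had been lethally irradiated with 2 doses of 5 Gy, given marrow, and left for 8 weeks before 6 weekly injections of azoxymethane (AOM) at 10 mg/kg, a carcinogen that induces colon tumours. The last injection preceded tumour collection by 13 or 14 weeks; the libraries came from 11 males and 1 female (WT => St2-/- replicate 3). The sources used here give no age. In such chimeras the endothelium and other cells that resist radiation stay of the host genotype, while most blood cells come from the marrow, and the share of host blood cells that remained was not given. The mice of St2-/- hosts and of WT hosts carry numbers of different formats in the labels, and a difference between hosts cannot be told apart from one between cohorts.

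Endothelial cells line blood vessels, and their genes serve sealing, growth signalling, exchange and clotting. Cdh5 (VE-cadherin), Pecam1 (CD31) and Esam are adhesion proteins of the contacts between endothelial cells. Kdr is the main signalling receptor for vascular endothelial growth factor, Tek (Tie2) is the angiopoietin receptor, and Tie1 is its relative. Plvap forms the diaphragms of fenestrae and caveolae, which are common in gut capillaries, and Emcn is a sialomucin of capillary and venous endothelium. Vwf encodes von Willebrand factor, the clotting protein that endothelium stores in Weibel-Palade bodies and that megakaryocytes also make. Ly6c1 encodes a small surface protein anchored by a lipid, found on endothelium in many mouse vessel beds, and its neighbour Ly6c2 encodes the Ly6C of monocytes and other myeloid cells.

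Ly6c1 and Ly6c2 are so alike that short reads cannot always be assigned to one of them. The first 180 of 396 coding bases of each, from GENCODE M21 on GRCm38, are shown to make this visible, with the bases at which they differ in capitals.
Ly6c1: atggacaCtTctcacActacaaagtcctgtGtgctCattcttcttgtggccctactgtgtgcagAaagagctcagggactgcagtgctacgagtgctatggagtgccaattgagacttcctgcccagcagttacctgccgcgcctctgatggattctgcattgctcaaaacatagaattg
Ly6c2: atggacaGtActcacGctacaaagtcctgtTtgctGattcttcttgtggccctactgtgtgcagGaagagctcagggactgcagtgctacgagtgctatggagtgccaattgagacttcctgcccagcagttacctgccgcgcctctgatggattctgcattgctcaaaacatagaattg
All 6 differences in this stretch lie in its first 65 bases. The whole coding sequences differ at 9 positions, are 97.7% identical and share a run of 188 identical bases, longer than the 50-base reads. Of all 50-base windows of Ly6c1 transcripts, 32.8% also occur in transcripts of another gene (Ly6c2, Ly6a or Ly6i). The same share was 1.54% for Pecam1, 0.947% for Vwf and 0.121% for Tie1, and 0 for the other 6 members. The reference genome is not that of a Balb/c mouse, so the mice may carry other bases.

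The members lie apart in the genome (GRCm38). Vwf is at chr6:125546774-125686679 and Ly6c1 at chr15:75044018-75048830, where Ly6c2 follows at chr15:75108158-75111970. The junction genes are at chr8:104101625-104144511 (Cdh5), chr11:106654217-106750628 (Pecam1) and chr9:37528078-37538319 (Esam). The receptors are at chr5:75932827-75978458 (Kdr), chr4:94739289-94874976 (Tek) and chr4:118471191-118490061 (Tie1). Emcn is at chr3:137341067-137432185 and Plvap at chr8:71497765-71511752. Plvap overlaps Gtpbp3 and Cdh5 overlaps Gm29682, both on the opposite strand, and the strand setting of the counting was not given, so reads of these pairs cannot be told apart with certainty.

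Gene counts summed to between 10293818 and 12962496 a library. As a check of the labels, Il1rl1 read 7.30 to 25.0 CPM (depth-scaled counts after edgeR's TMM scaling) in the 6 St2-/- hosts, against 36.5 to 275 in the 6 WT hosts (log2 fold change -3.42, edgeR quasi-likelihood adjusted p = 0.00984). This checks the host labels only: St2-/- => St2-/- tumours still had 100 to 175 counts, overlapping the 83 to 288 counts of WT => St2-/-, so the gene does not check the marrow labels. Each of the 26 further pan-endothelial genes looked up, such as Egfl7, Eng and Robo4, was also detected and passed the filter. The sum of 9 epithelial markers was 6046 to 13820 CPM in St2-/- hosts, against 11460 to 16060 in WT hosts.

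Per kilobase of the longest coding transcript, Ly6c1 had the highest median level over the 12 libraries, 70.7 CPM per kb, and Plvap the next, 39.5. Pecam1 (15.7), Esam (12.3) and Cdh5 (11) followed, all 3 junction genes, with ranges over libraries that overlapped widely. Tie1 (4.39), Emcn (4.06), Vwf (2.94), Kdr (2.88) and Tek (1.61) were lower. Tek was the lowest of the 10 per kb in 5 of 6 St2-/- hosts and 6 of 6 WT hosts. The top of the order differed by host: Plvap exceeded Ly6c1 per kb in 4 of 6 St2-/- hosts and in 0 of 6 WT hosts. Ly6c1 was at 17.5 to 41.1 CPM per kb in St2-/- hosts and 100 to 177 in WT hosts, so its median lay between them. This restates the host difference on which Ly6c1 was chosen.

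**Figure D1:**
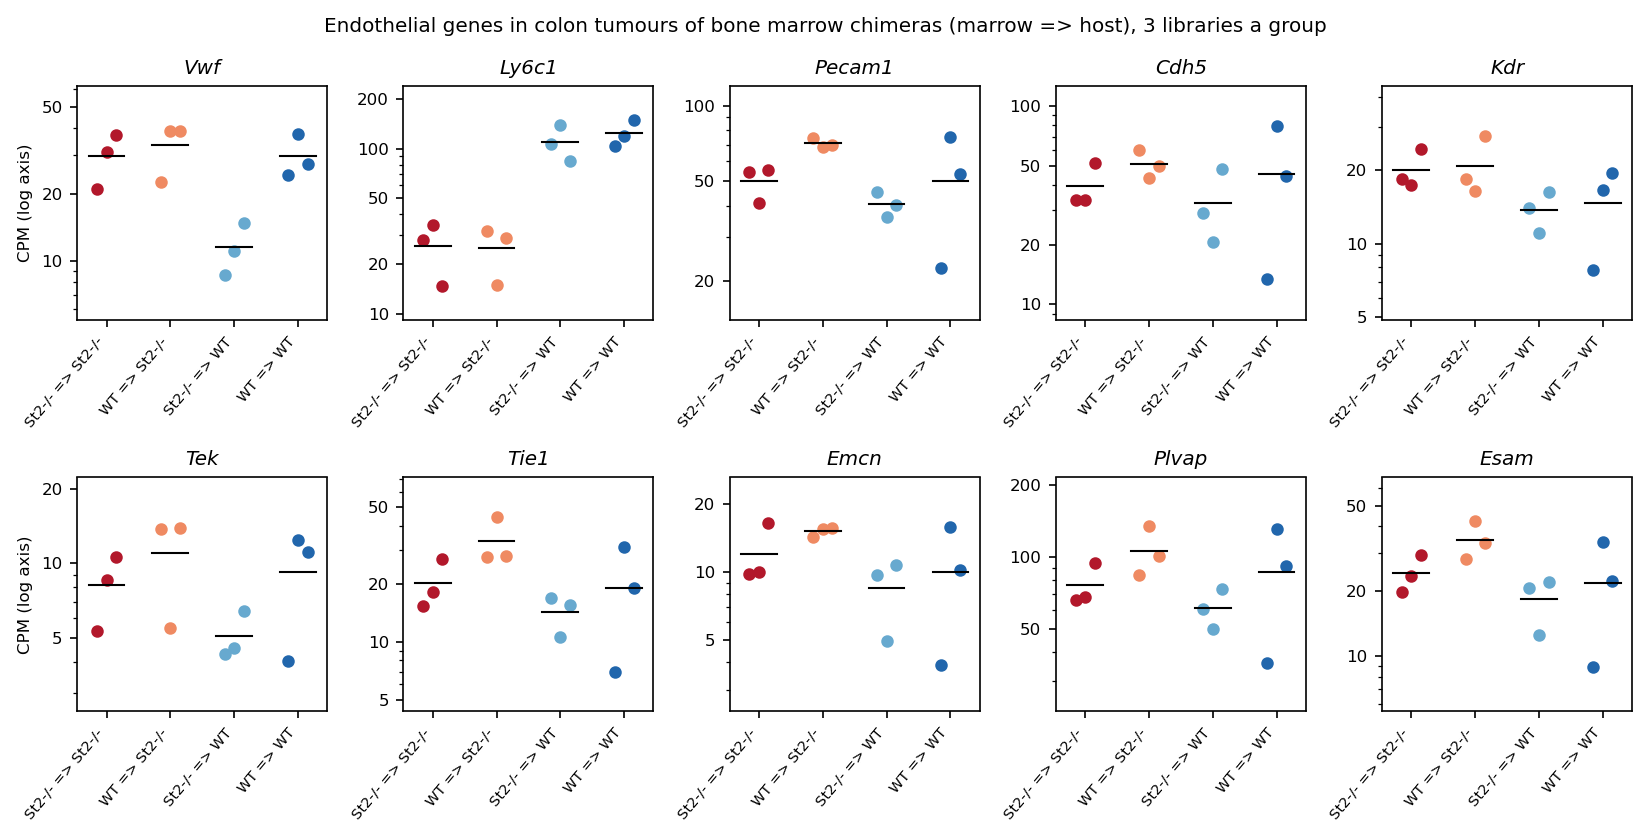
Level of each of the 10 endothelial genes in CPM (log axis, a separate range for each gene) in the 12 libraries, by group from St2-/- => St2-/- at the left to WT => WT at the right. Points are libraries in the order of their replicate number and bars are group means; Vwf is lowest in the 3 St2-/- => WT libraries and Ly6c1 in the 6 libraries of St2-/- hosts, while WT => WT replicate 1 is the lowest point for each of the other 8 genes.

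Apart from Vwf and Ly6c1, the genes had similar profiles over the 12 tumours. The summed level of these 8 genes was 223, 221 and 310 CPM in St2-/- => St2-/- (replicates 1 to 3), 320, 371 and 339 in WT => St2-/-, 201, 150 and 233 in St2-/- => WT, and 103, 395 and 272 in WT => WT. The WT => WT group thus held both the lowest and the highest of the 12 libraries. Replicate 1 of WT => WT was the lowest library for each of the 8 genes, with a median of -1.26 log2 units relative to the genes' own means, and St2-/- => WT replicate 2 followed at -0.79. All 8 genes lay above their own means in WT => St2-/- replicates 1 and 3, St2-/- => St2-/- replicate 3 and WT => WT replicate 2. Bulk tumour RNA cannot tell fewer endothelial cells from less RNA of these genes per cell.

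The closeness of 2 profiles was measured as the root mean square distance of log2 CPM, each gene centred on its mean over the 12 libraries. Emcn and Esam were 0.15 apart and Tie1 and Esam 0.154. Among all genes tested, Esam was the nearest to Emcn and to Tie1, and Emcn the nearest to Esam. Genes outside the set that lay closest included Cd93 for Pecam1 (0.143), Pcdh12 for Cdh5 (0.218), Mmrn2 for Kdr (0.173), Ptprb for Tek (0.291), Igfbp3 for Tie1 (0.187), Nos3 for Emcn (0.154), Arap3 for Plvap (0.165) and Egfl7 for Esam (0.151). Cd93, Mmrn2, Ptprb, Nos3 and Egfl7 are themselves known endothelial genes. All 12 libraries share 1 flow cell and lane, and these distances are descriptions over 12 points.

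Vwf and Ly6c1 followed other courses. The nearest member to Vwf was Plvap, at 0.556, which ranked 355 among the genes tested. Its 5 closest genes outside the set were 1700097N02Rik (0.389), Lmo1, Snord83b, Tsacc and Snora16a (0.418), against a distance of 0.696 to a flat profile. The nearest member to Ly6c1, Pecam1, was 1.479 away and ranked 12438 among the genes tested. The 5 genes closest to Ly6c1 were AW112010 (0.317), H2-Q4 (0.331), Psmb8 (0.34), Batf2 (0.36) and Il18bp (0.365), against 1.192 to a flat profile. H2-Q4 is a class I histocompatibility gene, Psmb8 an immunoproteasome subunit and Batf2 a transcription factor, all known to be induced by interferon-gamma.

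**Figure D2:**
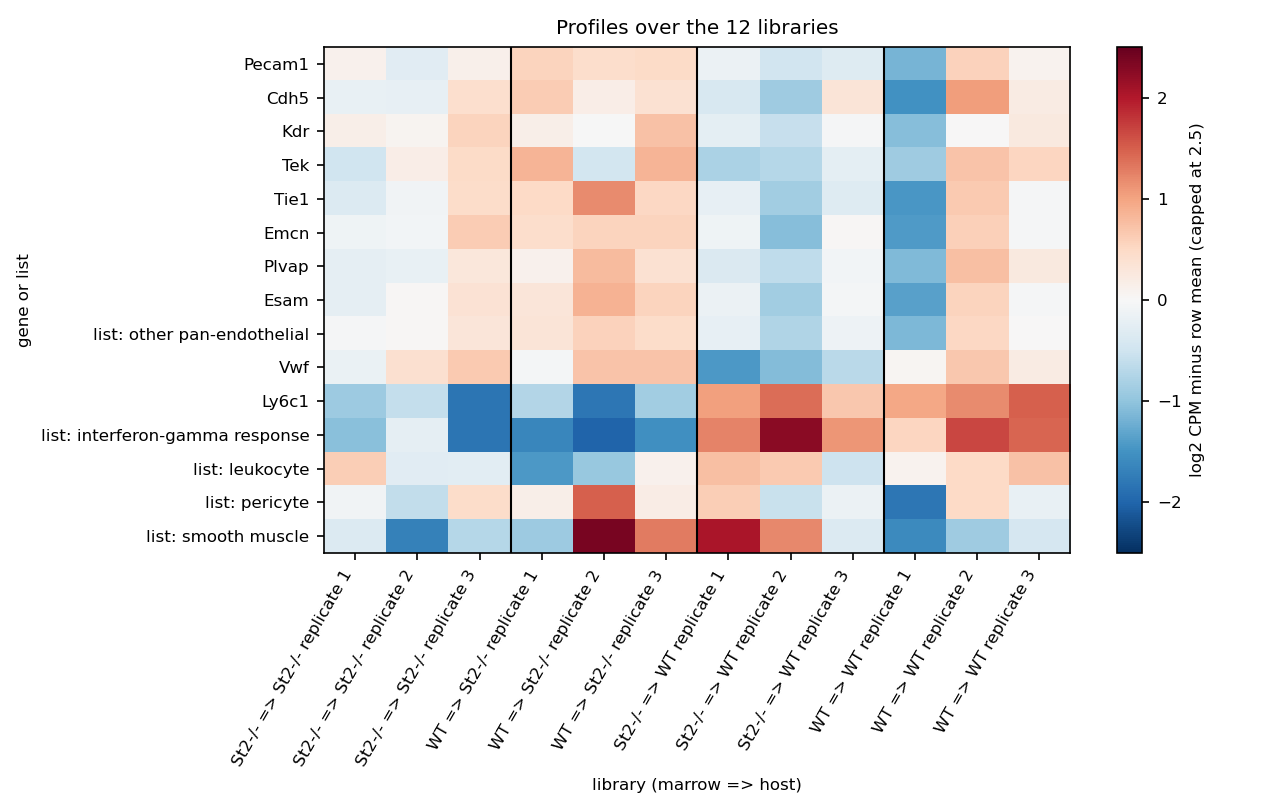
Heat map of log2 CPM minus the row's mean over the 12 libraries (colour, capped at 2.5) for the 10 genes and for the mean of 5 marker lists, with libraries in columns from St2-/- => St2-/- at the left to WT => WT at the right. The 8 upper genes share the column pattern of the other pan-endothelial list, whereas Ly6c1 shares that of the interferon-gamma list.

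With host genotype averaged over both marrows, no endothelial gene tested passed the test between St2-/- hosts and WT hosts. Of the 10 members, 9 had a log2 fold change (St2-/- hosts over WT hosts) above 0, with a median of 0.50 over the 10, against -0.002 over all genes tested. None of the 8 members tested was called at an adjusted p under 0.05, where 1.37% of all genes were called in either direction. At an unadjusted p under 0.05 there was 1 (Kdr), where 20.6% of all genes passed. DESeq2 and limma-voom called 0 of the 8, against 7.94% and 12.2% of all genes.

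Among the junction genes, Esam differed by 0.53 (SE 0.29, adjusted p = 0.316), Pecam1 by 0.41 (SE 0.23) and Cdh5 by 0.22 (SE 0.36). Among the growth factor receptors, Tie1 differed by 0.66 (SE 0.32, adjusted p = 0.267), Kdr by 0.53 (SE 0.23, adjusted p = 0.235) and Tek by 0.47 (SE 0.33). Emcn differed by 0.56 (SE 0.32) and Plvap by 0.31 (SE 0.27). The lowest value of Kdr in St2-/- hosts was 16.4 CPM and its highest in WT hosts 19.6, so even here the hosts overlapped. Without WT => WT replicate 1 the median of the 8 genes outside Vwf and Ly6c1 was 0.33, against 0.50 with it, and all 8 stayed above 0. With the mean of 26 other pan-endothelial genes as a covariate, 3 of the 8 lay above 0 and 5 below, with a median of -0.04. These 26 genes share the course of the 8, so this covariate takes out what they have in common.

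**Figure D3:**
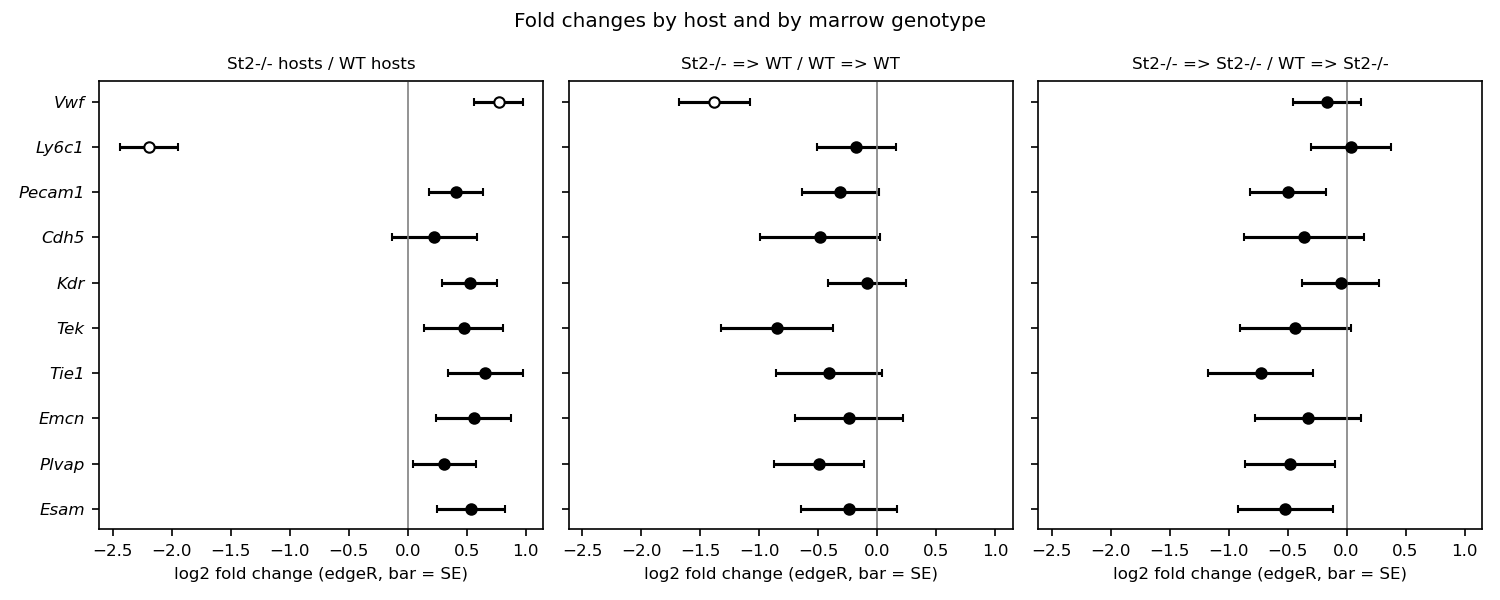
Log2 fold change of each gene (points, edgeR) with its SE (bars) for St2-/- hosts over WT hosts, for St2-/- => WT over WT => WT, and for St2-/- => St2-/- over WT => St2-/-. Open points are values without a test, since the libraries compared were used to choose the gene: Ly6c1 at -2.20 and Vwf at 0.77 in the first panel and Vwf at -1.38 in the second; 9 of 10 genes lie above 0 in the first panel, 10 of 10 below 0 in the second and 9 of 10 below 0 in the third.

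Vwf was at its lowest where St2-/- marrow met a WT host. It read 8.62, 11.1 and 14.7 CPM in St2-/- => WT (100, 129 and 170 counts), against 24.6, 37.7 and 27.4 CPM in WT => WT (286, 390 and 344 counts). The 3 values lay below every WT => WT value and also below every value in St2-/- hosts. Means were 11.5 ± 3.09 CPM in St2-/- => WT and 29.9 ± 6.91 in WT => WT (SD, n = 3 each), a level of 38.4% (log2 fold change -1.38, SE 0.30). Vwf was chosen on this comparison, so no p is given.

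In St2-/- hosts the levels of Vwf did not separate by marrow. Vwf read 21.1, 31.0 and 37.3 CPM in St2-/- => St2-/- and 22.9, 38.6 and 38.8 CPM in WT => St2-/-. The log2 fold change was -0.16 (SE 0.29, edgeR adjusted p = 0.996), so the direction is not settled by these libraries. The difference between the host effect with St2-/- marrow and that with WT marrow was 1.22 on the log2 scale (SE 0.41), given without a test because it shares the libraries on which Vwf was chosen.

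Averaged over marrows, Vwf in St2-/- hosts was 21.1 to 38.8 CPM (median 34.2), against 8.62 to 37.7 CPM in WT hosts (median 19.7). The log2 fold change was 0.77 (SE 0.21), a description only, since the libraries on which Vwf was chosen are among the WT hosts. By marrow, the host difference was 1.38 (SE 0.30) with St2-/- marrow and 0.16 (SE 0.29) with WT marrow.

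Relative to the other vessel genes, Vwf was also lower in all 3 St2-/- => WT libraries than in any WT => WT library. Vwf per 100 CPM of the 8 other genes was 4.30, 7.37 and 6.33 in St2-/- => WT, against 23.8, 9.54 and 10.1 in WT => WT. In St2-/- hosts it was 9.47, 14.1 and 12.1 in St2-/- => St2-/- and 7.13, 10.4 and 11.4 in WT => St2-/-. Replicate 2 of St2-/- => WT, at 7.37, thus lay above the lowest WT => St2-/- library. The value of 23.8 belongs to WT => WT replicate 1, in which the 8 genes were low and Vwf was not. Vwf is on the numerator here, so these ratios rest on the same values that chose it.

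**Figure D4:**
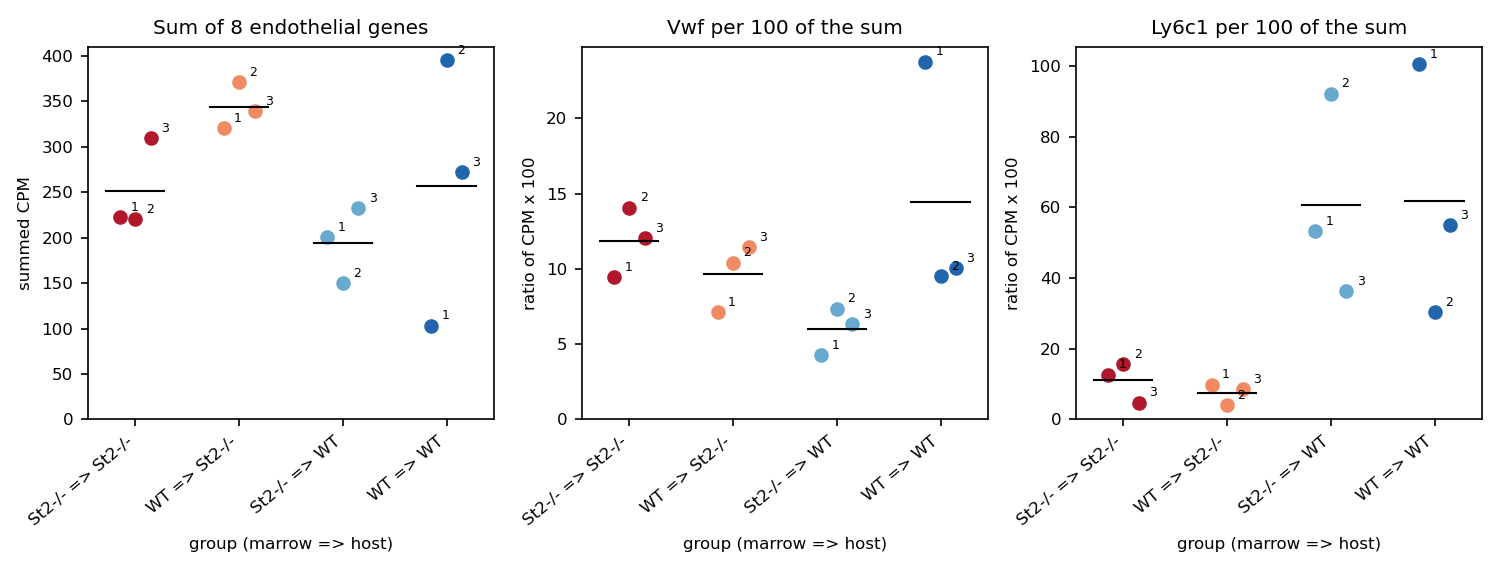
Summed CPM of the 8 endothelial genes outside Vwf and Ly6c1 (left), and Vwf (middle) and Ly6c1 (right) per 100 CPM of that sum, by group from St2-/- => St2-/- at the left to WT => WT at the right. Points are libraries with their replicate number, bars are means of 3; the ratio of Ly6c1 is 4.06 to 15.7 in St2-/- hosts and 30.3 to 101 in WT hosts, and WT => WT replicate 1 has the lowest sum and both highest ratios.

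None of the 9 members tested in St2-/- => WT against WT => WT passed, and Vwf was given no test there. All 10 were below 0, with a median log2 fold change of -0.36, against 0.014 over all genes tested. The side of Vwf was fixed by the way it was chosen. None of the 9 members tested was called, nor was any gene in the table (0% called, lowest adjusted p 0.798), while 6.04% of genes had an unadjusted p under 0.05 and 0 of the 9 members did. DESeq2 and limma-voom called none of the 9 either. The largest difference after Vwf was that of the angiopoietin receptor Tek, at 4.31, 4.54 and 6.42 CPM in St2-/- => WT and 4.04, 12.5 and 11.1 CPM in WT => WT (-0.85, SE 0.48, adjusted p = 0.81). Vwf was the single member whose libraries did not overlap, where 5.41% of all genes lay apart in that direction. Without WT => WT replicate 1 the median of the 8 genes other than Vwf and Ly6c1 was -0.75 instead of -0.36, and still 0 were called. Without St2-/- => WT replicate 2 it was -0.25, with 2 of the 8 above 0. With the mean of the 26 other pan-endothelial genes as a covariate it was 0.031, with 5 of the 8 above 0. Here too the covariate takes out the course that the vessel genes share.

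RNA of smooth muscle genes differed in this comparison, mainly through replicates 1 and 2 of St2-/- => WT, and the content of muscle was not measured. The mean log2 CPM of 10 smooth muscle genes was 7.72, 6.87 and 5.32 in St2-/- => WT and 4.07, 4.78 and 5.24 in WT => WT. All 10 had a log2 fold change above 0, with a median of 2.22. Summed, the list reached 600.1 to 3105 CPM in St2-/- => WT, against 302.3 to 575.7 CPM in WT => WT. Actg2 and Cnn1, both contractile proteins, differed by 2.93 (SE 0.87) and 3.38 (SE 1.06), and no gene of the list was called (adjusted p = 0.798 for both). An unadjusted edgeR p under 0.05 was reached by 8 of the 10, against 6.04% of all genes. In St2-/- hosts all 10 genes lay below 0 (median -2.34), with means of 5.33, 3.97 and 4.96 in St2-/- => St2-/- and 4.75, 8.04 and 6.98 in WT => St2-/-. Between marrows in St2-/- hosts, 9 of the 10 had an unadjusted edgeR p under 0.05, against 4.05% of all genes, and none was called. With the smooth muscle mean as a covariate, the Vwf difference in St2-/- => WT against WT => WT was -1.43 (SE 0.38), against -1.38 without it.

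Ly6c1 was lower in all 6 tumours of St2-/- hosts than in any of the 6 tumours of WT hosts. It read 28.2, 34.7 and 14.8 CPM in St2-/- => St2-/- and 31.6, 15.04 and 29.0 in WT => St2-/-, against 107, 138 and 84.7 in St2-/- => WT and 104, 120 and 150 in WT => WT. The highest value in an St2-/- host, 34.7, lay below the lowest in a WT host, 84.7. Such a gap in this direction was present for 1.71% of all genes tested. The level in St2-/- hosts was 21.8% of that in WT hosts (log2 fold change -2.20, SE 0.25, description only), and it was -2.09 (SE 0.35) with St2-/- marrow and -2.30 (SE 0.35) with WT marrow.

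The marrow comparisons of Ly6c1 were not used to choose it and can be tested. In WT hosts the log2 fold change of St2-/- => WT over WT => WT was -0.18 (SE 0.34, edgeR adjusted p = 0.949). In St2-/- hosts that of St2-/- => St2-/- over WT => St2-/- was 0.04 (SE 0.34, adjusted p = 0.998). The host effect with St2-/- marrow minus that with WT marrow was 0.21 (SE 0.48, adjusted p = 0.935), and across the table no gene was called in this interaction (0% called, 7.6% at an unadjusted p under 0.05). These p-values do not show that marrow genotype left Ly6c1 unaltered.

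Ly6c1 and the other vessel genes thus lay on opposite sides in the host comparison. Per 100 CPM of the 8 other members, Ly6c1 was 12.7, 15.7 and 4.77 in St2-/- => St2-/-, 9.85, 4.06 and 8.55 in WT => St2-/-, 53.4, 92.2 and 36.4 in St2-/- => WT and 101, 30.3 and 54.9 in WT => WT. The hosts did not overlap on this scale either. Ly6c1 is on the numerator here, so this gap rests on the same values that chose it.

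The related genes of the Ly6 cluster on the same chromosome were looked up next. Of 8 tested, 1 was called, where 1.37% of all genes were: Ly6a (Sca-1), which fell in St2-/- hosts (-2.24, SE 0.40, adjusted p = 0.0244). Lynx1 (-0.63, adjusted p = 0.129) and Ly6e (-0.62, adjusted p = 0.162) were not called. Ly6c2, the myeloid relative, had 7 to 52 counts in St2-/- hosts and 12 to 65 counts in WT hosts, far fewer than the 173 to 438 and 976 to 1878 counts of Ly6c1. Its difference of -0.88 (SE 0.57, adjusted p = 0.402) did not pass. Ly6a was more abundant than Ly6c1, at 75.6 to 457 CPM in St2-/- hosts and 879 to 1399 CPM in WT hosts. Ly6c1 was at 14.8 to 34.7 and 84.7 to 150 CPM. How far reads of Ly6a entered the count of Ly6c1 was not tested. Some reads of Ly6c1, Ly6c2 and Ly6a cannot be placed, as the sequences above show, so their counts are less certain than those of the other members.

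Genes of the interferon-gamma response moved with Ly6c1. All 18 genes of that list fell in St2-/- hosts, where 1.08% of all genes were called lower, with a median log2 fold change of -2.45; Ido1, the tryptophan-degrading enzyme, showed -6.15 (SE 0.52, adjusted p = 0.000865) and Cd274 (PD-L1) -2.20 (SE 0.25, adjusted p = 0.00325). Their mean log2 CPM was 3.87 to 5.65 in St2-/- hosts, against 6.41 to 8.14 in WT hosts. With this mean as a covariate, the Ly6c1 host difference was -0.52 (SE 0.47) instead of -2.20; no gene in the table was called in that fit, and the score itself did not overlap between hosts. This list was chosen with the low values of its genes in St2-/- hosts already known, so its host differences are descriptions without a test.

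The 250 bases before a start of Ly6c1, from RefSeq on GRCm38.p6, minus strand, chr15:75048838-75049087, are given because of this shared course.
Ly6c1 upstream: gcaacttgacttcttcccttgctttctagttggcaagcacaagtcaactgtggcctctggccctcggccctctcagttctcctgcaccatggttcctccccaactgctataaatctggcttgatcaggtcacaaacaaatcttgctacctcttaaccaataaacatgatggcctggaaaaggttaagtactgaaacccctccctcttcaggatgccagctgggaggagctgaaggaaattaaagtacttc
Searched on both strands, the core of the interferon-stimulated response element (ISRE) does not occur in this window, and it occurs in 2.98% of 32851 such windows. The ETS letters CAGGAAG or CCGGAAG occur in 17% of windows and in 1 of the 5 members with a window (Emcn, Tek, Tie1, Kdr and Ly6c1), Emcn. The GATA letters AGATAA occur in 9.99% of windows and in 0 of the 5. Vwf, Pecam1, Cdh5, Plvap and Esam were not searched.

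The host comparison was also made within each marrow genotype. In WT => St2-/- against WT => WT, 9 of 10 members were above 0 (median 0.40) and 0 of the 8 tested were called, where 0.159% of genes were; DESeq2 and limma-voom also called 0, against 4.95% and 2% of all genes, and 0 of the 8 passed at an unadjusted p under 0.05, against 16.7% of all genes. Tie1 showed the largest value of the 8, 0.82 (SE 0.45, adjusted p = 0.381), with 27.7, 44.6 and 27.9 CPM in WT => St2-/- and 6.96, 30.9 and 19.0 CPM in WT => WT. Without WT => WT replicate 1, 5 of the 8 were above 0 and the median was 0.18 instead of 0.50.

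In St2-/- => St2-/- against St2-/- => WT, 9 of 10 members were again above 0 (median 0.44) and 0 of the 8 tested were called, where 0.0598% of genes were; the count was also 0 at an unadjusted p under 0.05, which 12% of all genes passed, and with DESeq2 and limma-voom, which called 1.75% and 12.9% of all genes. Kdr read 18.4, 17.5 and 24.5 CPM in St2-/- => St2-/-, against 14.0, 11.1 and 16.3 CPM in St2-/- => WT. Its libraries did not overlap (0.54, SE 0.33, adjusted p = 0.509), as was the case for 10.6% of genes in that direction. Without St2-/- => WT replicate 2 the median of the 8 genes was 0.26 instead of 0.44.

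Between marrows in St2-/- hosts, levels were lower with St2-/- marrow for 9 of 10 members (median -0.40), and 0 of the 10 were called (0% of genes called, lowest adjusted p 0.256; 4.05% of genes and 0 of the 10 members at an unadjusted p under 0.05; DESeq2 and limma-voom called 0 of the 10). Pecam1 read 54.6, 41.2 and 55.3 CPM in St2-/- => St2-/- and 74.5, 68.5 and 69.9 CPM in WT => St2-/- (-0.50, SE 0.33, adjusted p = 0.995). Tie1 read 15.4, 18.2 and 26.9 CPM in St2-/- => St2-/- and 27.7, 44.6 and 27.9 CPM in WT => St2-/- (-0.73, SE 0.45, adjusted p = 0.995). These 2 genes did not overlap between marrows, as was the case for 4.23% of genes in that direction. The other 8 members overlapped between marrows.

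None of the further pan-endothelial genes looked up was called in the host comparison, where 1.37% of all genes were. Of 26 further pan-endothelial genes, 25 were above 0 in St2-/- hosts against WT hosts (median 0.48), and 6 had an unadjusted p under 0.05, where 20.6% of all genes did. Those with the smallest p were Palmd (0.91, adjusted p = 0.111), Tal1 (1.06, adjusted p = 0.123), a transcription factor of blood and endothelium, and Myct1 (0.87, adjusted p = 0.139). In St2-/- => WT against WT => WT, 19 of the 26 were below 0 (median -0.37), as with Ecscr (-0.72, adjusted p = 0.798).

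No gene of vessel growth signalling was called in the host comparison, where 1.37% of all genes were, so 0 calls in short lists say little. An unadjusted edgeR p under 0.05 was reached by 1 of 11 ligands, 1 of 13 receptors and 4 of 17 Notch-list genes. The share over all genes was 20.6%. Of 11 angiogenic ligands tested, 6 were above and 5 below 0 in the host comparison and none was called; Angpt2, which opposes Tek signalling, showed 0.62 (SE 0.25, adjusted p = 0.203). Of 13 angiogenic receptors, 11 were above 0 and none was called; the phosphatase Ptprb showed 0.59 (adjusted p = 0.2) and the decoy receptor Flt1 0.61 (adjusted p = 0.265). Of 17 Notch and tip or stalk cell genes, 14 were above 0 and none was called; the Notch target Hey1 showed 1.12 (SE 0.33, adjusted p = 0.117).

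No gene listed as acting with Vwf was called, where 1.37% of all genes were called between hosts and 0% between marrows in WT hosts. An unadjusted edgeR p under 0.05 was reached by 4 of 16 between hosts, against 20.6% of all genes. Between those marrows it was 2 of 16, against 6.04%. Of 16 genes of Weibel-Palade bodies and haemostasis, 10 were above 0 and none was called in either the host comparison or in St2-/- => WT against WT => WT. In the second, tissue factor F3 showed 0.99 (SE 0.25) and its inhibitor Tfpi -1.35 (SE 0.41), both with an adjusted p of 0.798. Since megakaryocytes also make Vwf, 10 platelet and megakaryocyte genes were looked up and 5 passed the filter. Their summed level was 22.0 to 44.3 CPM in St2-/- hosts and 15.5 to 23.3 CPM in WT hosts, and by marrow in WT hosts 16.4 to 20.9 CPM in St2-/- => WT and 15.5 to 23.3 CPM in WT => WT. Pf4 showed -1.15 (SE 0.37, adjusted p = 0.798) in St2-/- => WT against WT => WT, and Gp1bb 0.83 (SE 0.22, adjusted p = 0.0941) in St2-/- hosts. Of 6 erythrocyte genes, Alas2 alone was tested (0.61, adjusted p = 0.54), and 4 of the 6, all haemoglobin genes, had no count in any library. Rows without counts do not show that blood was absent, and why they were empty was not tested. The part of blood in the vessels in these results was not tested.

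Adhesion and barrier genes were also not called, where 1.37% of all genes were. An unadjusted edgeR p under 0.05 was reached by 1 of 13 adhesion, 0 of 14 junction and 1 of 6 lymphatic genes. The share over all genes was 20.6%. Of 13 leukocyte adhesion genes tested, none was called in the host comparison; Icam1, which endothelium and other cells express when inflamed, showed -0.97 (SE 0.24, adjusted p = 0.0791) and Madcam1, an adhesion protein of gut vessels, 0.81 (adjusted p = 0.265). Of 14 genes of junctions, caveolae and fenestrae, 10 were above 0 and none was called; Cldn5 showed 1.52 (SE 0.74, adjusted p = 0.271). Of 6 lymphatic genes tested, 5 were above 0 and none was called; Prox1, also made by some epithelial tumour cells, showed 1.43 (SE 0.42, adjusted p = 0.117).

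Markers of other cells were set beside these values, in a comparison of hosts that called 1.37% of all genes. An unadjusted edgeR p under 0.05 was reached by 1 of 9 pericyte, 4 of 9 epithelial, 0 of 8 fibroblast and 2 of 12 leukocyte genes. The share over all genes was 20.6%. Of 9 pericyte genes, 7 were above 0 in St2-/- hosts and none was called; Notch3 showed 0.79 (adjusted p = 0.238). The pericyte sum was lowest in WT => WT replicate 1, at 61.7 CPM, the library in which the endothelial genes were lowest. The low level there was not limited to vessel genes. Fibroblast genes also had their lowest mean log2 CPM in it, 5.74, though their sum was lower in St2-/- => WT replicate 2 (888.3 against 994.5 CPM). Its epithelial mean was 9.94, in a range of 8.54 to 10.07 over the libraries. All 9 epithelial genes and all 8 fibroblast genes were below 0 in St2-/- hosts (medians -0.42 and -0.20) with none called. Of 12 leukocyte genes 11 were below 0, with none called; the T cell gene Cd8a showed -2.45 (SE 0.60, adjusted p = 0.0793). The part of tissue composition in the endothelial differences was not tested beyond the fits with marker scores.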

How the data were processed

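The authors deposited unnormalized counts of reads for 24062 genes in 12 libraries. The submitters' processing notes name TopHat, Bowtie2 and GRCm38. Versions, the counting tool, the annotation and the strand setting are not given in the sources used here. Per the labels' protocols, libraries were TruSeq RNA, read as single-end 50-base reads. The 5 summary entries, 49.8% to 59.6% of each library's total, were left out. The gene totals, 10293818 to 12962496, limit the precision, and p-values measure the spread between libraries labelled as biological replicates.

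The analysis used edgeR 4.0.16 under R 4.3.3, with the following steps: filterByExpr with a minimum count of 10, TMM scaling, a robust quasi-likelihood fit with 1 coefficient for each of the 4 groups, contrasts of these, two-sided tests and Benjamini-Hochberg adjustment over 15060 genes. A gene was called at an adjusted p under 0.05. Log2 CPM used a prior count of 2. Because all comparisons share groups, their values are not independent of each other. The step was tested on simulated counts. Alternatives used DESeq2 1.42.0, limma 3.58.1 (voom), other filters and scaling, a replicate block, a term for weeks after AOM, marker scores, and each library left out.

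The members and gene lists were chosen with earlier results of these data known. Genes named were all 10 members, up to 3 genes of each list with the smallest p in the host comparison and 2 in St2-/- => WT against WT => WT, the 5 nearest to Vwf and to Ly6c1, Il1rl1, and Ly6c2. The nearest gene to each other member, and Egfl7, Eng and Robo4, were named after their values were seen. Sequences and positions came from GENCODE M21 and RefSeq, read with Python 3.11.15.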

Additional observations from a re-analysis of the deposited data

Results flagged for a closer look

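Among 3 genes outside the endothelial set, named here because they were among the 2 of their list with the smallest p in St2-/- => WT against WT => WT, every library moved one way under one genotype and the opposite way under the other. Cav2, a caveolin, was lower in St2-/- => St2-/- (16.4, 18.8 and 16.8 CPM) than in WT => St2-/- (25.8, 20.4 and 29.7), yet higher in St2-/- => WT (30.8, 18.5 and 18.7) than in WT => WT (13.7, 16.9 and 16.7). Its host effect with St2-/- marrow minus that with WT marrow was -1.07 on the log2 scale (SE 0.32, edgeR adjusted p = 0.539). Sdpr, another gene of caveolae, read 7.03, 5.62 and 7.11 CPM in St2-/- => St2-/-, 7.96, 22.3 and 15.7 in WT => St2-/-, 19.8, 10.6 and 7.46 in St2-/- => WT and 3.43, 7.34 and 6.45 in WT => WT, with a difference of host effects of -2.35 (SE 0.64, adjusted p = 0.539). Emr1, a macrophage gene, was higher in St2-/- => St2-/- (7.72, 7.60 and 10.2 CPM) than in St2-/- => WT (6.12, 4.72 and 6.16), yet lower in WT => St2-/- (2.29, 4.87 and 9.58) than in WT => WT (9.62, 23.5 and 11.9), with a difference of host effects of 2.01 (SE 0.67, adjusted p = 0.559). None of these differences passed the test. Of the 15060 genes tested, 144 (0.956%) separated in opposite directions in this way, by host or by marrow. Smooth muscle genes moved with the caveola genes: all 10 of their list were below 0 in the same difference of host effects, with a median of -4.49. All 10 had an unadjusted edgeR p under 0.05 there, against 7.6% of all genes, and none was called. The part of smooth muscle in the caveola genes was not tested. Groups of 3 libraries are too small for a test of single outlying libraries.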

How the results depend on the processing

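In all 6 comparisons the count of members called, over the members tested, was 0 under every alternative run, the replicate block included. Replicate numbers do not pair the samples: correlations of same-numbered deviations ran from -0.44 to 0.308, and a library was closest to its own number in 8 of 36 cases. Counts of all genes called ranged from 0 (interferon-gamma score as a covariate) to 1834 (limma-voom) in the comparison of hosts, where edgeR called 206, from 0 to 746 (DESeq2) in WT => St2-/- against WT => WT, where it called 24, and from 0 to 1943 (limma-voom) in St2-/- => St2-/- against St2-/- => WT, where it called 9. Where edgeR called 0, DESeq2 called 14 between marrows in St2-/- hosts and 93 in the interaction.

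The sign of some values turned. The other pan-endothelial score takes out the course that the vessel genes share. With it as a covariate, host differences were -0.027 for Pecam1, -0.42 for Cdh5, -0.063 for Emcn, -0.25 for Plvap and -0.051 for Esam. In that fit Vwf in WT => St2-/- against WT => WT was -0.11. Without WT => St2-/- replicates 2 and 3 together, that Vwf value was -0.39 and Vwf in St2-/- => St2-/- against WT => St2-/- was 0.38. Leaving out single libraries gave -0.38 to 0.046 for this last value of Vwf. Ly6c1 in St2-/- => WT against WT => WT was 0.035 with the smooth muscle score. Ly6c1 in St2-/- => St2-/- against WT => St2-/- was -0.46 with limma-voom, -0.11 with weeks after AOM, -0.29 without WT => St2-/- replicates 2 and 3, -0.022, -0.14 and -0.43 with the pan-endothelial, smooth muscle and interferon-gamma scores, and -0.23 to 0.32 without single libraries. Its interaction was -0.11 with limma-voom, -0.11 without both libraries, -0.17 and -0.035 with the smooth muscle and interferon-gamma scores, and -0.053 to 0.50 without single libraries. The causes were not tested. The host difference of Ly6c1 stayed below 0 in all 23 alternatives (-2.43 to -0.52), that of Vwf above 0 in all 23 (0.50 to 1.00), and Vwf in St2-/- => WT against WT => WT below 0 in all 24 (-1.60 to -1.18). Ly6c1 and Vwf were chosen on these comparisons or on libraries within them. Their constant signs were largely set by that choice and are descriptions only. The interferon-gamma score was added as a covariate after its values had been seen. With 3 libraries a group and 45 to 1878 counts per member and library, differences of the size seen for most members were within the spread between tumours.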
